A study of Mus musculus with 6 samples.

Results

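Pol II occupancy was described at 77 nuclear-encoded genes of the mitochondrial respiratory chain, out of 12107 genes measured. A gene was taken as a member when its symbol began with Nduf followed by a, b, c, s or v and a digit, was Sdha to Sdhd, or began with Uqcr, with Cox4 to Cox8 followed by a, b or c, or with Atp5, so that no measured value entered the choice. The assay was chromatin immunoprecipitation and sequencing (ChIP-seq) of POLR2A (RPB1), which forms the catalytic core of RNA polymerase II (Pol II), by its N-terminal domain. The cells were neural precursor cells (NPCs) grown as second-passage neurospheres in EGF, taken from the ganglionic eminence at e13.5. There were 3 knockout (KO) libraries of the genotype Armc5(-/-) and 3 wild-type (WT) libraries, all labelled as strain 129 sv X CD1 and numbered as replicate pairs 1 to 3. ARMC5 brings POLR2A to a cullin ubiquitin ligase, and the Armc5 gene itself was not analysed here. The labels do not say how many fetuses went into a library. The p-values of the main fits rest on the spread of the KO and WT differences over these 3 pairs, pooled in part across all genes. The question put to these genes was whether the loss of ARMC5 was accompanied by more or less Pol II at their promoters, gene bodies or transcription end site (TES) regions.

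The respiratory chain sits in the inner mitochondrial membrane and couples the oxidation of NADH and succinate to the pumping of protons and the synthesis of ATP. Complex I takes electrons from NADH, complex II from succinate, complex III passes them to cytochrome c, complex IV hands them to oxygen, and complex V is the ATP synthase. Some subunits are encoded in mitochondrial DNA and made by a separate polymerase, whereas the genes described here are nuclear and transcribed by Pol II. In the textbook view nuclear respiratory genes are broadly expressed, and NRF1, the ETS factor GABP, YY1 and the SP factors are the transcription factors best known for acting at their promoters.

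The members comprised 37 genes of complex I, 4 of complex II, 8 of complex III, 12 of complex IV and 16 of complex V. In complex I, 16 genes belong to the matrix arm, which binds NADH and passes electrons to ubiquinone (among them Ndufs1, Ndufs7, Ndufv1, Ndufv2, Ndufa2, Ndufa5 and Ndufa7). The other 21 were membrane arm or accessory genes (Ndufa1, Ndufa3, Ndufa4, Ndufa4l2, Ndufa8, Ndufa10, Ndufa11, Ndufa13, Ndufb2 to Ndufb11, Ndufc1, Ndufc2 and Ndufs5). Ndufa4 keeps a complex I symbol although its protein is now placed with complex IV, and Ndufa4l2 is its hypoxia-inducible relative. Complex II was complete with its flavoprotein gene Sdha, its iron-sulfur gene Sdhb and the membrane anchor genes Sdhc and Sdhd. Complex III held the core genes Uqcrc1 and Uqcrc2, the Rieske protein gene Uqcrfs1, and Uqcrb, Uqcrh, Uqcrq, Uqcr10 and Uqcr11. Complex IV held Cox5a, Cox5b, Cox6a1, Cox6b1, Cox6c, Cox7a2, Cox7b, Cox7c and Cox8a, together with Cox6b2, known from testis, and Cox7a1 and Cox8b, known from heart and skeletal muscle. Complex V held the catalytic head and stalk genes Atp5a1, Atp5b, Atp5c1, Atp5d, Atp5e and Atp5o, the 3 genes of the proton-carrying c-ring (Atp5g1, Atp5g2 and Atp5g3), and Atp5f1, Atp5h, Atp5j, Atp5k, Atp5l, Atp5md and Atp5mpl.

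Promoter sequence could be set beside the signal for 65 of the 77 members, from RefSeq windows of 300 bases around the start in build GRCm38.p6. The sequences below are shown because they belong to the member with the highest promoter signal of each complex and to Sdhb, the lowest of complex II, whose promoter value differed most between the groups in that complex. Capitals mark exact matches on either strand to GCATGCGC (NRF1) or CCGGAAG (ETS and GABP), which share no position here, and AAGATGGC (YY1) had no match in these 6 windows.
Ndufa7 (chr17:33824322-33824621, plus strand): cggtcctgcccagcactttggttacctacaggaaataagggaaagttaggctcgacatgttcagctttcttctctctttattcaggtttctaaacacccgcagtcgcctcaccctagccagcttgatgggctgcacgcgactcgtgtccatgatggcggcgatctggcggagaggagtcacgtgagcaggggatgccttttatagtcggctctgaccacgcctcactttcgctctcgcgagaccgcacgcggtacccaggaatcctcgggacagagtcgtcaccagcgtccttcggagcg
Sdhd (chr9:50603800-50604099, minus strand): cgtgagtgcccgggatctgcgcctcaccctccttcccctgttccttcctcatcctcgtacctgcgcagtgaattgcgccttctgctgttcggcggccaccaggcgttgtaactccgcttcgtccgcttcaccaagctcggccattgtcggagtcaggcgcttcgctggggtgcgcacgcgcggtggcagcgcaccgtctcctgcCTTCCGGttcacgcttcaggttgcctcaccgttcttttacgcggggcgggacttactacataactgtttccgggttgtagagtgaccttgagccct
Uqcr11 (chr10:80406772-80407071, minus strand): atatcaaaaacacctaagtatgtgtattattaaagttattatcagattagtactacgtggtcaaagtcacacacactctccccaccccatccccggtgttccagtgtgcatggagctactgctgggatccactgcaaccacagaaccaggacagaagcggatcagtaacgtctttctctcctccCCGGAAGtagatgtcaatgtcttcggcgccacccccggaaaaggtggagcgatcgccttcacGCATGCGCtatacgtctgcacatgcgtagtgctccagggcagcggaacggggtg
Cox5a (chr9:57520982-57521281, plus strand): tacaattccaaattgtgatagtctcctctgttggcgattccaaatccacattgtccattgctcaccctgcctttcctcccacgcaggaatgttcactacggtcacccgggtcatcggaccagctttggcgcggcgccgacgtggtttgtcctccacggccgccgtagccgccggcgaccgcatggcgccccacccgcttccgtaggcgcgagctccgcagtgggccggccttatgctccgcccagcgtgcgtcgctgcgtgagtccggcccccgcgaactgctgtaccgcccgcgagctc
Atp5h (chr11:115419870-115420169, minus strand): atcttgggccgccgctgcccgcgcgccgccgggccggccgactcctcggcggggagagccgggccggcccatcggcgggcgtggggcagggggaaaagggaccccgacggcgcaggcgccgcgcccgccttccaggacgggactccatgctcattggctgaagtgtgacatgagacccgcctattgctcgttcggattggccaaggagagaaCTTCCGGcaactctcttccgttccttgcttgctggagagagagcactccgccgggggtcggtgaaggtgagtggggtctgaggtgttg
Sdhb (chr4:140961021-140961320, plus strand): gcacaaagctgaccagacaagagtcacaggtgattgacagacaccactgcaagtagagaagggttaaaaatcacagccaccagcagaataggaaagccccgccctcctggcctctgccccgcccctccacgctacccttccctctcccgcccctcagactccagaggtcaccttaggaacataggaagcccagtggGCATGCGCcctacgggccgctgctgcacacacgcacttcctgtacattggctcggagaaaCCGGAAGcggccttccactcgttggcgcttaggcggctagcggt
In Uqcr11 the NRF1 match began 4 bases before the start and the ETS match 66 bases before it. Sdhb carried both as well, 54 bases before and 6 bases after the start, and the ETS matches of Sdhd and Atp5h began 46 and 38 bases before their starts. Ndufa7 and Cox5a, the members with the highest promoter signal in their complexes, held neither. Members not in the promoter table included Atp5a1, Atp5mpl, Cox6c, Ndufa2, Ndufs1, Sdhc, Uqcrb, Uqcrc2 and Uqcrq.

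Over all 70 promoter starts of the 65 members, 14.3% held the NRF1 match, against 5.34% of the 11974 starts of the other genes of the table. The ETS and GABP match was in 24.3% against 17.4%, and the YY1 match in 12.9% against 4.42%. The SP and KLF match GGGCGG, searched on both strands too, went the other way, with 38.6% of member starts against 65% of the others. By complex, the YY1 match was found in 7 of 34 starts of complex I, 2 of 17 of complex V and none of complexes II, III and IV. The NRF1 match was in 3 of 34 starts of complex I, 1 of 3 of complex II, 2 of 5 of complex III, 1 of 11 of complex IV and 3 of 17 of complex V. These shares describe letters in a window, carry no test, and say nothing of binding.

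Some properties of the libraries bear on how the values read. CPM below is the read count scaled to library size by the TMM method, and total counts were 16056262 to 25199455 in KO and 14528870 to 23808344 in WT libraries. Pair 3 stood apart with the lowest share of reads in promoters, 6.878% in KO and 6.04% in WT, against 10.98% to 12.21% in the other KO libraries and 10.93% to 11.17% in the other WT libraries. Y-linked genes summed to 0.731 CPM in WT replicate 3 and to between 118 and 216 CPM in the other 5 libraries. All 12 precursor markers were measured, with a median promoter at percentile 81.9 of all genes. Sox2 promoters had 20.5 ± 13.6 CPM in KO and 23.8 ± 14.2 CPM in WT (SD, n = 3 each), and Pax6 was low with 0.807 ± 0.607 CPM in KO and 0.643 ± 0.393 CPM in WT. The ganglionic eminence markers Gsx2 and Dlx2, 2 of 4 listed, summed to 2.62 to 6.38 CPM at promoters in KO and 2.25 to 7.24 CPM in WT. Of the neuronal markers 4 of 5 were measured, with promoter sums of 4.18 to 21.5 CPM in KO and 4.25 to 14.7 CPM in WT, highest in pair 2 of both groups. The oligodendrocyte lineage markers, 2 of 4, summed to 1.06 to 2.88 CPM in KO and 1.37 to 2.69 CPM in WT, and 0 of 3 astrocyte, 0 of 4 microglial and blood and 0 of 3 endothelial markers were among the 12107 genes. Signal is relative within each library, so a change shared by all genes would not be seen.

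Pol II was present at promoters, gene bodies and TES regions of members of every complex, in both groups. Promoter windows have one length (from 400 bases before to 100 after the start), so their levels can be compared between genes. The median promoter of the 77 members had 9.5, 8.44 and 4.25 CPM in KO replicates 1 to 3 and 8.4, 8.7 and 4.22 CPM in the WT replicates, against 6.95, 6.86 and 3.54 CPM in KO and 6.54, 6.69 and 3.74 CPM in WT for all genes. By complex, the KO and WT medians were 7.37 ± 2.82 and 7.13 ± 2.53 CPM in complex I, 11.7 ± 5.69 and 12.5 ± 4.18 CPM in complex II, and 9.64 ± 3.85 and 10 ± 3.86 CPM in complex III (SD over 3 libraries each). They were 5.66 ± 2.26 and 4.75 ± 2.23 CPM in complex IV and 6.53 ± 2.3 and 6.22 ± 2.6 CPM in complex V. The order of the complexes, with II and III above I, V and IV, was the same in KO and WT means, but neighbouring complexes differed by less than the larger of their SDs between libraries. Of the members, 22 (28.6%) lay in the top 25% of all promoters and 10 (13%) in the bottom 25%.

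**Figure D1:**
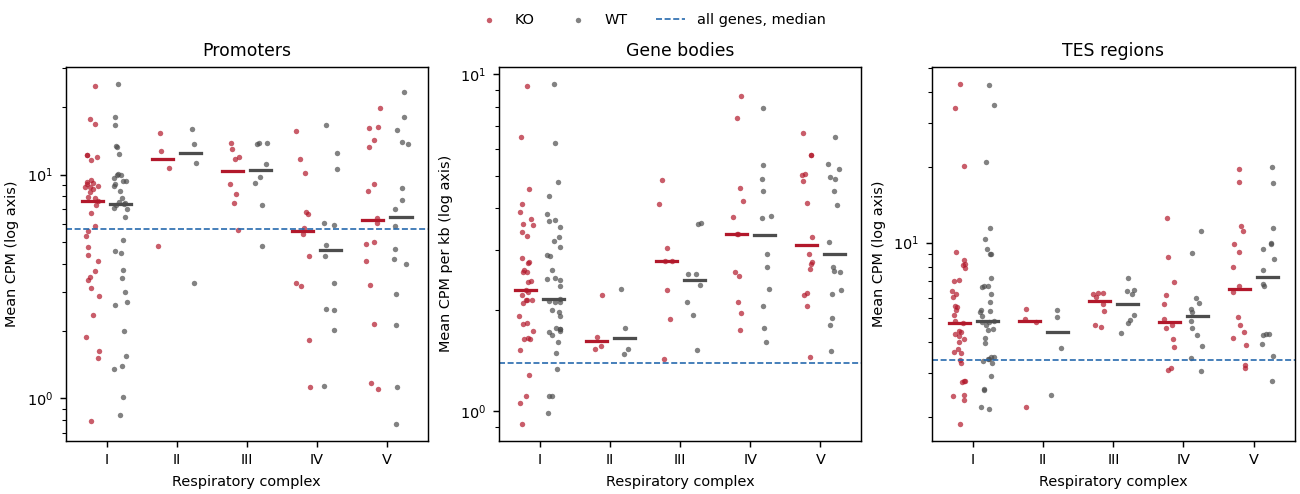
Pol II signal of the 77 members by complex, with 1 point per gene (mean of 3 libraries), KO left (red) and WT right (grey), a bar at the median over genes, and a dashed line at the median of all genes. The left and right panels give CPM on a log axis, the middle panel gene body CPM per kb on a log axis, and in gene bodies and TES regions the medians of all 5 complexes lie above the median of all genes.

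Single members spanned a wide range of promoter signal. The highest was Ndufa7, a matrix arm subunit of complex I, with 34.6, 26.1 and 14.4 CPM in KO and 33, 27.9 and 15.6 CPM in WT. KO and WT values interleaved, and the third pair was lowest in both groups. Its window shares 211 bases with the promoter window of the ribosomal protein gene Rps28 on the opposite strand, so these reads cannot be given to Ndufa7 alone. Atp5h, a stalk subunit of the ATP synthase, was the highest of complex V with 28, 22.2 and 9.42 CPM in KO and 27.8, 26.8 and 15.3 CPM in WT, and shares 367 bases with the promoter window of Kctd2. Cox5a, a small subunit of complex IV, had 23.9, 14.5 and 8.71 CPM in KO and 22, 17.2 and 11 CPM in WT. Sdhd, a membrane anchor of complex II, had 21.3, 16.9 and 7.58 CPM in KO and 18.9, 18.2 and 10.7 CPM in WT, with 299 bases of its window shared with that of Timm8b, a mitochondrial import gene. Uqcr11, a small subunit of complex III, had 20.5, 15 and 6.16 CPM in KO and 18.7, 17.3 and 5.36 CPM in WT. In each of these 5 genes the groups overlapped. Atp5b, the catalytic beta subunit of the ATP synthase, reached 16.2 ± 7.5 CPM in KO and 18.1 ± 5.94 CPM in WT.

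At the low end stood Ndufa4l2 with 0.796 ± 0.396 CPM in KO and 0.846 ± 0.326 CPM in WT, Atp5f1, a stalk subunit gene, with 1.1 ± 0.543 CPM in KO and 0.771 ± 0.294 CPM in WT, and the muscle isoform gene Cox8b with 1.12 ± 0.382 CPM in KO and 1.14 ± 0.0859 CPM in WT. They ranked low among all promoters, at percentiles 3.73, 5.86 and 9.66. For Atp5f1 the nearest RefSeq start lay 836 bases from the annotated start, outside the promoter window, and its gene body had 66.4, 58.1 and 45.1 CPM in KO and 64.9, 53.1 and 45.4 CPM in WT. A RefSeq start fell outside the promoter window in 12 members, among them Ndufa5, Ndufs7, Cox7c, Atp5d, Atp5f1, Atp5g2 and Atp5o. Their median promoter signal was 2.05 CPM, against 8.71 CPM in the 65 members with a start inside it. Such windows made up 15.6% of the members and 17.2% of the other genes of the table. The lowest of complex III was the core protein gene Uqcrc1 with 5.64 ± 1.64 CPM in KO and 4.82 ± 1.59 CPM in WT, and the lowest of complex II was Sdhb with 4.82 ± 1.64 CPM in KO and 3.27 ± 1.3 CPM in WT.

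Promoter windows that overlap a gene of the opposite strand were frequent among members. Such an overlap need not hold the start of the other gene, as with Ndufa13, whose window lies wholly in the Tssk6 gene body. The promoter window overlapped a protein-coding gene of the opposite strand in 31 members, or 40.3%, against 19.3% of the other 12022 genes that could be placed. Reads without strand cannot be divided between such partners, which holds for promoter values of Ndufs1, Sdha, Sdhc, Uqcrb, Uqcrh and Atp5a1 among others. The members were also short genes, with a median length of 7206 bases against 24319 bases for all genes (GENCODE vM21, GRCm38).

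Gene bodies differ in length, so their levels are given per kb. The median member had 3.09, 2.41 and 2.21 CPM per kb in KO and 2.68, 2.45 and 2.15 CPM per kb in WT, against 1.32, 1.34 and 1.5 in KO and 1.33, 1.32 and 1.53 in WT for all genes. Of the 77 members 51 (66.2%) were in the top 25% of all genes on this scale and 1, Ndufa1, in the bottom 25%. Short members with low promoters could also score high here. Ndufa4l2, Cox8b and Cox7a1, at promoter percentiles 3.73, 9.66 and 19.3, had 2.91, 2.72 and 4.14 CPM per kb. The long gene Ndufs4, at percentile 11.7, had 1.09. No input was subtracted, and the part of gene length in these ranks was not tested. Medians by complex in KO and WT were 2.27 ± 0.249 and 2.27 ± 0.299 CPM per kb for complex I, 1.61 ± 0.0758 and 1.65 ± 0.0671 for complex II, 2.67 ± 0.454 and 2.34 ± 0.283 for complex III, 3.21 ± 0.606 and 3.1 ± 0.391 for complex IV, and 3.23 ± 0.522 and 3.05 ± 0.416 for complex V. Complexes IV and V were thus highest in gene bodies per kb and complex II lowest, whereas at promoters complex II had the highest median. Within each complex the KO and WT medians differed by less than the SD of the KO libraries. The highest gene bodies per kb were Ndufb10 (9.29 CPM per kb over the 6 libraries), a membrane arm subunit, and Cox7c (8.3), a small subunit of complex IV. The gene body window of Ndufb10 shares 1770 bases, or 79.8% of its length, with the TES window of Rps2, a ribosomal protein gene. The body of Atp5o in the annotation covers 242585 bases and shares 78.8% of its length with that of Itsn1, so its 359 CPM over the 6 libraries cannot be assigned to Atp5o.

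TES windows have one length again, from 100 bases before to 2000 after the end of the gene. Members had a median of 5.79, 4.65 and 4.81 CPM there in KO and 6.25, 4.99 and 4.39 CPM in WT, against 3.2, 3.07 and 3.54 CPM in KO and 3.52, 3.24 and 3.66 CPM in WT for all genes. The highest complex was V, with 6.52 ± 1.23 CPM in KO and 6.96 ± 1.68 CPM in WT, and 10 of its 16 genes were in the top 25% of all TES regions. Complex III followed with 5.65 ± 0.799 and 5.53 ± 1.49 CPM, and complexes I, II and IV lay between 4.57 and 4.77 CPM in KO and between 4.27 and 5.03 CPM in WT. TES windows of 33 members overlapped another gene, which includes the 2 highest, Ndufb6 (43 CPM) and Ndufb10 (35 CPM).

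No member was called in KO against WT in any of the 3 regions (limma-voom, replicate pair as a block, two-sided, Benjamini-Hochberg adjustment over 36321 regions, adjusted p under 0.1). Among all genes 21 of 12107 promoters (0.173%), 25 gene bodies (0.206%) and 3 TES regions (0.0248%) were called, so at these rates a count of 0 among 77 does not set the members apart. The quasi-likelihood test of edgeR and DESeq2 also called 0 members in each region. The smallest adjusted p of a member was 0.426 at promoters, 0.438 in gene bodies and 0.446 in TES regions. In a simulation with planted changes the limma-voom fit called 37% of 100 changes of 0.5 log2 units and 94% of 100 changes of 1 log2 unit. It also made 18 false calls, and the planted changes left out regions of low count. A count of 0 therefore cannot show that smaller changes were absent. Median log2 fold changes of the members were 0.01 at promoters, 0.04 in gene bodies and -0.05 in TES regions, against 0.03, -0.01 and -0.08 for all genes. The 95% interval of the fold change lay within 1 log2 unit on either side of 0 for 69 of 77 promoters and for all 77 gene bodies and all 77 TES regions. In bulk chromatin, fewer cells with Pol II at a gene and less Pol II per cell cannot be told apart. The promoter and TES medians changed sign with TMM computed within each kind of region, to -0.02 and 0.03.

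**Figure D2:**
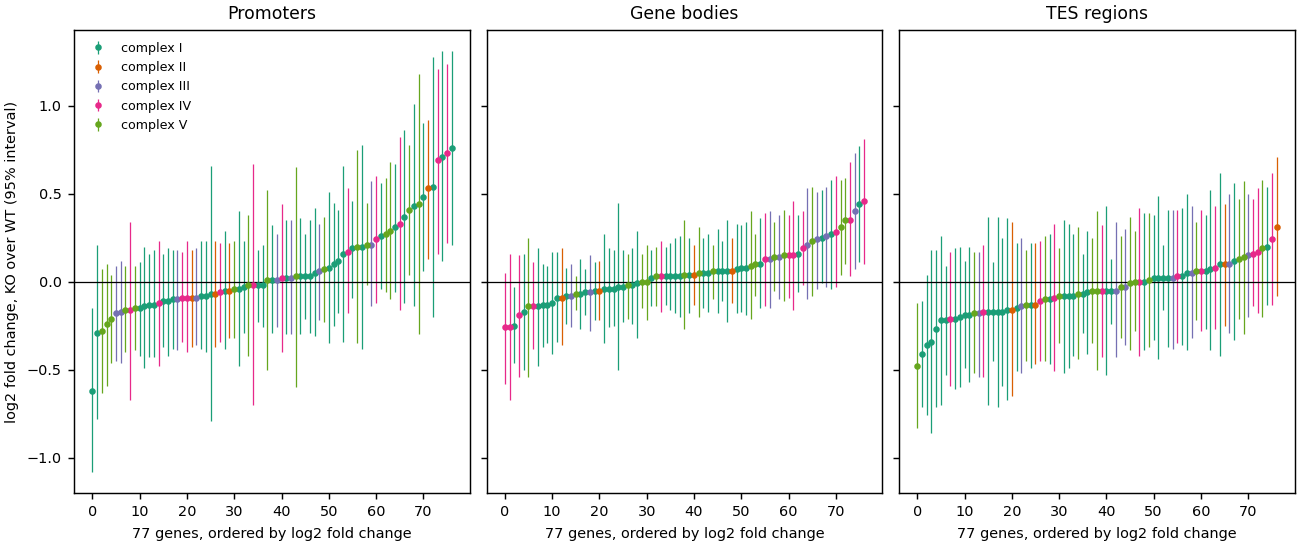
log2 fold change of KO over WT (vertical axis) for the 77 members, ordered by value within each panel and coloured by complex, with 95% intervals from the limma-voom fit. Promoter values ran from -0.62 to 0.76, gene body values from -0.26 to 0.46 and TES values from -0.48 to 0.31, and none was called at an adjusted p under 0.1.

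By complex, the promoter medians of the log2 fold change were 0.02 in complex I, -0.06 in II, -0.04 in III, 0.00 in IV and 0.02 in V. In gene bodies they were 0.02, -0.00, 0.18, 0.14 and 0.06, and in TES regions -0.08, -0.02, -0.01, 0.01 and -0.04. The gene body value of complex III was made of 6 genes above and 2 below 0, with medians of 0.21, 0.08 and 0.18 in pairs 1, 2 and 3. That of complex IV had 8 genes above and 4 below 0 and pair medians of 0.18, 0.05 and -0.02. In complex V 12 of 16 gene bodies were above 0, with pair medians of 0.10, 0.01 and 0.07. In complex II the promoter medians of the pairs were 0.11, -0.01 and -0.49, so that the third pair, the one with the low promoter share, stood apart from the others.

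At an unadjusted p under 0.05, 7 member promoters were higher and 1 was lower in KO, where 7.55% of all promoters were higher and 2.4% lower. The counts of 7 and 1 in 77 lie near those shares. In a fit without the replicate block 0 member promoters, gene bodies or TES regions were under this p. That fit called 0 regions of any gene, and its share of all genes under this p is not given. Its 0 is therefore no result about the members. Cox7c, a small subunit of complex IV, had the smallest p, with 2.84, 6.04 and 4.18 CPM in KO and 2.78, 2.89 and 1.87 CPM in WT. Its groups overlapped, since KO replicate 1 was below WT replicate 2, and pairs 2 and 3 carried the difference. KO exceeded WT in 3 of 3 pairs, by 0.73 ± 0.24 on the log2 scale (SE here and below, limma adjusted p = 0.426). The RefSeq start of Cox7c lies 109 bases from the annotated start, just outside its window. Ndufa13, a membrane arm subunit also known as GRIM-19, had 2.41, 4.65 and 3.04 CPM in KO and 2.15, 1.82 and 2.03 CPM in WT (0.76 ± 0.25, limma adjusted p = 0.438). It was the one member promoter whose groups did not overlap, which held for 2.24% of all promoters higher and 0.33% lower in KO. Its window lies wholly in the gene body of Tssk6 on the opposite strand, whose fold change was 0.10 ± 0.14, and overlaps Yjefn3 on its own strand. Ndufa3, a small membrane arm subunit, was the one lower promoter, with 7.05, 5.47 and 1.7 CPM in KO and 8.3, 8.11 and 6.01 CPM in WT (-0.62 ± 0.21, limma adjusted p = 0.465). The gap was widest in pair 3.

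Sdhb, the iron-sulfur subunit of complex II, had 3.85, 6.71 and 3.89 CPM in KO and 3.03, 4.67 and 2.11 CPM in WT at its promoter. It was higher in KO in each pair although the groups overlapped (0.53 ± 0.18, limma adjusted p = 0.466), while its gene body had 39.4 ± 8.21 CPM in KO and 41 ± 6.33 CPM in WT (-0.05 ± 0.08). The other complex II promoters had fold changes of -0.09 ± 0.13 (Sdha), -0.07 ± 0.14 (Sdhc) and -0.05 ± 0.13 (Sdhd). Cox6b2, the testis isoform of a complex IV subunit, had 5.72, 9.69 and 4.6 CPM in KO and 1.76, 8.7 and 2.6 CPM in WT at its promoter (0.69 ± 0.24, limma adjusted p = 0.479). Both pair 2 libraries were highest for it, as they were for the neuronal marker Tubb3 with 3.35, 11 and 1.84 CPM in KO and 2.2, 7.64 and 1.87 CPM in WT. The part of the neuronal signal in the Cox6b2 value was not tested. The Cox6b2 promoter window also overlaps Fam71e2 on its own strand, a gene not measured here, so these reads cannot be given to Cox6b2 alone. The remaining promoters under this p were Ndufa5 (0.71 ± 0.28, with 46, 65 and 33 reads in KO and 23, 33 and 27 reads in WT), Ndufv1, which holds the NADH-binding site (0.48 ± 0.19), and Atp5l (0.41 ± 0.17). Past this p lay the next-ranked members of complexes III and V. Uqcrfs1, the Rieske protein, had 12 ± 4.77 CPM in KO and 13.7 ± 4 CPM in WT (-0.18 ± 0.13), Uqcrc1 had a fold change of 0.21 ± 0.16, and Atp5c1, the central stalk subunit, had 16.3 ± 6.23 CPM in KO and 14 ± 5.84 CPM in WT (0.21 ± 0.11).

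Promoter calls depended on which libraries were fitted. Without replicate pair 1, Cox7c (log2 fold change 1.09, limma adjusted p = 0.0293), Ndufa13 (1.09, adjusted p = 0.0678) and Ndufa3 (-0.90, adjusted p = 0.0801) were called, among 246 of all 12107 promoters in place of 21. Leaving out KO replicate 1 alone or WT replicate 1 alone called the same 3 genes, among 356 and 355 promoters. With the pair as a block, the partner of a left-out library no longer adds to the KO and WT difference. These fits thus largely repeat the fit without pair 1, and their match was fixed in advance. Without KO replicate 2, Cox6b2 was called (1.31, limma adjusted p = 0.0938), among 25 promoters, and without the whole pair 2 it was not (1.33, adjusted p = 0.363).

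**Figure D3:**
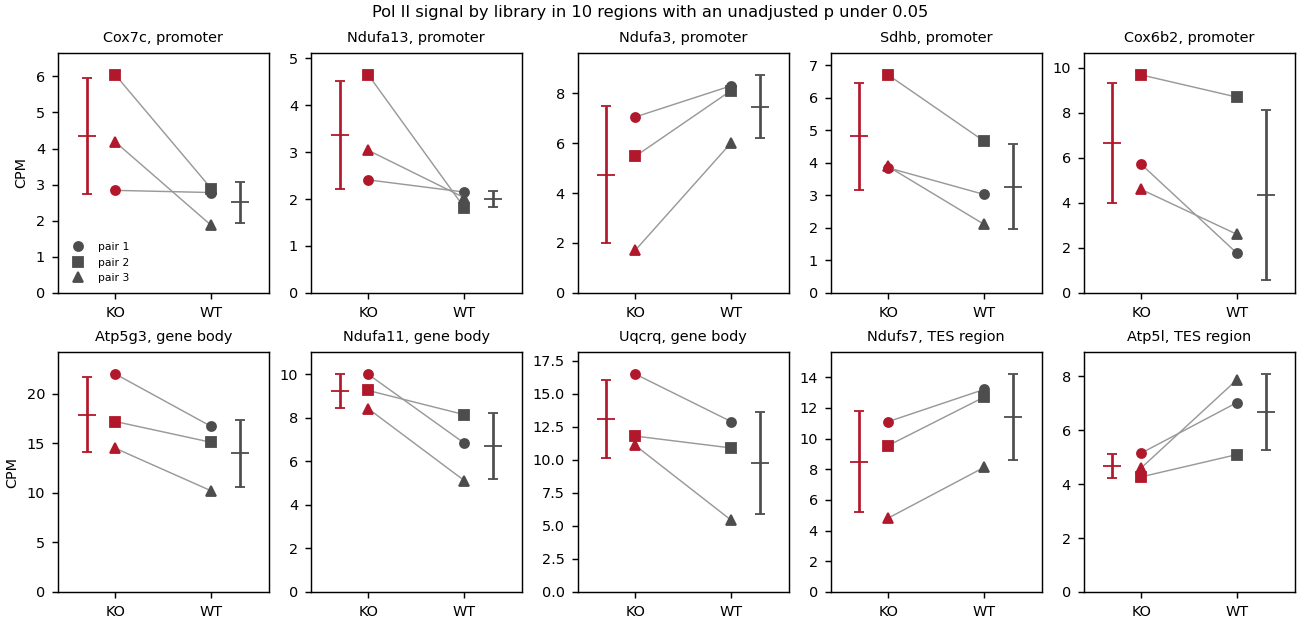
CPM in each KO (left, red) and WT (right, grey) library for 10 regions of members, all with an unadjusted p under 0.05, with lines joining replicate pairs and bars giving mean and SD of 3 libraries. All vertical axes start at 0. In Ndufa13 and Ndufa11 the KO and WT values do not overlap, and in the other 8 regions they do.

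In gene bodies 6 members were higher and 1 was lower in KO at an unadjusted p under 0.05, against 4.82% higher and 3.59% lower over all genes. Of these, Atp5g1 and Atp5g3 encode the same mature protein, the c-ring subunit of the ATP synthase, from different precursors. Atp5g3 had 22, 17.2 and 14.5 CPM in KO and 16.7, 15.1 and 10.2 CPM in WT. It was higher in KO in 3 of 3 pairs, with groups that overlapped across pairs (0.35 ± 0.11, limma adjusted p = 0.438). Atp5g1 had 24.4, 15.9 and 17.4 CPM in KO and 21.6, 13.8 and 9.99 CPM in WT (0.31 ± 0.13, limma adjusted p = 0.551). The other c-ring gene, Atp5g2, had 44.8 ± 13 CPM in KO and 46.1 ± 7.48 CPM in WT (-0.02 ± 0.09), and whether the 3 genes differ from each other was not tested. Uqcrq, a small subunit of complex III, had 16.5, 11.8 and 11.1 CPM in KO and 12.9, 10.9 and 5.44 CPM in WT (0.40 ± 0.15, limma adjusted p = 0.518). Cox6b2 had 3.42, 14.6 and 6.58 CPM in KO and 2.44, 12 and 3.41 CPM in WT in its gene body (0.46 ± 0.16), again highest in both libraries of pair 2. Cox6a1, the widely expressed isoform of a complex IV subunit, had 10.5 ± 2.7 CPM in KO and 8.4 ± 0.974 CPM in WT (0.35 ± 0.15), and Uqcr11, just past this p, 11.1 ± 3.37 CPM in KO and 9.27 ± 3.67 CPM in WT (0.26 ± 0.13).

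Ndufa11, a membrane arm subunit, had a gene body with groups that did not overlap, at 10, 9.26 and 8.42 CPM in KO and 6.84, 8.15 and 5.12 CPM in WT (0.44 ± 0.15, limma adjusted p = 0.456). Over all genes 1.5% of gene bodies were higher and 0.603% lower in KO without overlap. The Ndufa11 window contains the whole promoter window of Vmac, a gene on the opposite strand. That promoter was among the 21 called, with 3.96, 6.19 and 3.61 CPM in KO and 1.66, 2.97 and 1.14 CPM in WT (1.21 ± 0.21, limma adjusted p = 0.0825). The Vmac promoter CPM was then taken off, a split made after the values were seen. The rest of the Ndufa11 gene body had 6.05, 3.07 and 4.81 CPM in KO and 5.18, 5.18 and 3.98 CPM in WT. Its mean was 4.64 ± 1.5 CPM in KO and 4.78 ± 0.692 CPM in WT, with KO higher in 2 of 3 pairs. Ndufb3 was the one other gene body without overlap, lower in KO in 3 of 3 pairs, with 16.1 ± 1.48 CPM in KO and 17.9 ± 0.419 CPM in WT (-0.13 ± 0.11, limma adjusted p = 0.789).

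Ndufs7, a matrix arm subunit that carries an iron-sulfur cluster close to the ubiquinone site, was the 1 member with lower values under this p in both its gene body and its TES region. The gene body had 38.1, 29.8 and 24.4 CPM in KO and 47.2, 38.6 and 21.8 CPM in WT (-0.25 ± 0.10, limma adjusted p = 0.55), with pair 3 in the other direction. In the TES region it had 11.1, 9.54 and 4.81 CPM in KO and 13.2, 12.7 and 8.12 CPM in WT, lower in 3 of 3 pairs (-0.41 ± 0.14, limma adjusted p = 0.446). The TES window shares 74.2% of its length with that of Gamt, a creatine synthesis gene on the opposite strand, whose TES value was -0.50 ± 0.12 (limma adjusted p = 0.224). These values therefore rest in large part on the same reads. TES regions of members had 0 higher and 2 lower at an unadjusted p under 0.05, against 1.4% higher and 4.84% lower over all genes. The second was Atp5l, a membrane subunit of the ATP synthase, with 5.15, 4.27 and 4.6 CPM in KO and 7.03, 5.1 and 7.88 CPM in WT (-0.48 ± 0.17, limma adjusted p = 0.468). Its promoter value had the opposite sign, and KO replicate 1 alone overlapped the WT range in the TES region. The next-ranked TES regions had fold changes of -0.36 ± 0.18 for Ndufa8 in complex I, 0.31 ± 0.18 for Sdha and -0.13 ± 0.16 for Sdhb in complex II, -0.18 ± 0.17 for Uqcr11 and 0.15 ± 0.16 for Uqcrq in complex III, 0.24 ± 0.17 for Cox5a and -0.21 ± 0.18 for Cox7b in complex IV, and -0.18 ± 0.16 for Atp5c1 in complex V.

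Core genes of the chain listed by name had these gene body values. Fold changes were -0.08 ± 0.08 for Ndufs1, the largest matrix arm iron-sulfur subunit, 0.08 ± 0.12 for Ndufv1, 0.04 ± 0.08 for Sdha, 0.06 ± 0.09 for Sdhc, -0.09 ± 0.13 for Sdhd, -0.06 ± 0.10 for Uqcrc1, -0.08 ± 0.08 for Uqcrc2, and 0.24 ± 0.13 for Uqcrfs1. In complex IV, Cox5b had -0.19 ± 0.16 and Cox6c 0.03 ± 0.09, and in complex V Atp5b had 0.14 ± 0.09. The 16 matrix arm genes of complex I had a median gene body fold change of -0.03 and the 21 others 0.03, with medians of 0.08 and 0.02 at promoters and -0.09 and -0.08 in TES regions. The 3 X-linked members, Ndufa1, Ndufb11 and Cox7b, had a median difference of 0.17, -0.06 and -0.26 log2 units in pairs 1 to 3. X-linked genes as a whole were at 0.09, 0.11 and -0.31, and pair 3 is the one whose WT library had 0.731 CPM of Y-linked signal.

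The pausing index sets promoter signal over gene body signal on a log2 scale and is read as the balance of Pol II near the start against Pol II in elongation. No member was called among 77 tested (limma, adjusted p under 0.1), and 4 of 12096 genes were (0.0331%). On simulated counts with planted changes, this test called 0% of 74 changes of 0.5 log2 units and 0% of 71 changes of 1 log2 unit. The count of 0 members therefore cannot show that the index was unchanged. At an unadjusted p under 0.05, 6 members were higher and 6 lower in KO, against 7.05% and 3.65% of all genes. The median change of the members was -0.02 log2 units, against 0.01 for all genes, and by complex it was 0.02 in I, -0.14 in II, -0.25 in III, 0.08 in IV and -0.03 in V. Per base, the median index of the members was 2.38 ± 0.58 in KO and 2.47 ± 0.35 in WT (log2), below the 2.78 ± 0.62 in KO and 2.77 ± 0.56 in WT of all genes. Complex II had the highest index, 3.75 ± 0.80 in KO and 3.98 ± 0.54 in WT, and complex IV the lowest, 1.62 ± 0.39 and 1.47 ± 0.18. Library 3 of each group was lowest in every complex. The 95% interval of the change lay within 1 log2 unit of 0 for 66 of the 77 members.

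**Figure D4:**
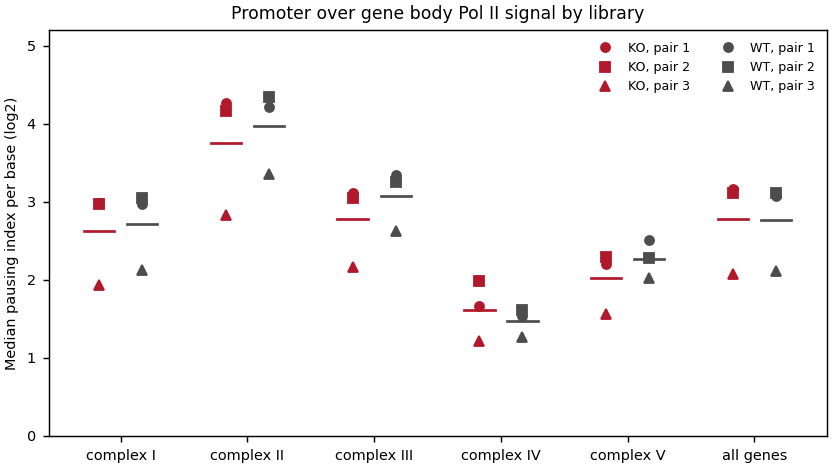
Median log2 pausing index per base over the genes of each complex and over all genes, with 1 symbol per library by replicate pair, KO left (red) and WT right (grey), and a bar at the mean of 3 libraries. KO and WT overlap in each complex, and the libraries of pair 3 are the lowest of both groups.

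The 5 members with the smallest p of the pausing index came from 4 complexes. Ndufa3 had a log2 index per base of 2.09, 1.84 and 0.64 in KO and 2.23, 2.49 and 2.42 in WT, a change of -0.86 ± 0.27 (limma adjusted p = 0.324). Sdhb had 1.55, 2.56 and 2.18 in KO and 1.20, 2.00 and 1.15 in WT (0.64 ± 0.21, limma adjusted p = 0.327). In both genes the promoter carried the difference, since neither gene body differed by more than its SE. The Ndufa3 gene body window shares 69.1% of its length with the TES window of Tfpt on the opposite strand. Its gene body value, and so its index, cannot be given to Ndufa3 alone. Ndufa13 had 0.28, 1.25 and 1.15 in KO and 0.19, -0.05 and 0.51 in WT (0.68 ± 0.24). Cox6a1, with 3.25, 2.77 and 1.61 in KO and 3.45, 3.54 and 2.34 in WT (-0.56 ± 0.20), and Atp5g3, with 2.21, 2.21 and 1.70 in KO and 2.83, 2.43 and 2.41 in WT (-0.52 ± 0.19), had the higher gene body values given above. Where both regions had to average 50 counts or more, Ndufa3 was called (limma adjusted p = 0.0708), among 180 of 9223 genes. Without pair 1, Ndufa3, Ndufa13, Cox5b, Cox7c and Atp5mpl were called, among 371 of 12073 genes.

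Genes of the pathway outside the members were read from lists. Of 8 listed subunit genes and partners outside the symbol rule 6 were measured, and 0 were called in any region. Cox4i1, a regulatory subunit of complex IV, had 21.7 ± 9.01 CPM in KO and 20.2 ± 5.06 CPM in WT at its promoter (0.12 ± 0.11), and Cyc1, the cytochrome c1 of complex III, 14.1 ± 6.44 CPM in KO and 15.8 ± 5.96 CPM in WT (-0.16 ± 0.11). Cycs, cytochrome c itself, had a gene body at 25.7, 12.7 and 12 CPM in KO and 22.2, 10.5 and 8.77 CPM in WT (0.27 ± 0.11, limma adjusted p = 0.563), and its TES region had 0.38 ± 0.17. Of 27 assembly factor genes of complexes I, II, III and V 26 were measured and 0 called, with median fold changes of -0.01 at promoters, 0.00 in gene bodies and -0.09 in TES regions. The promoter of Atpaf1, a chaperone of the ATP synthase, was their 1 region under an unadjusted p of 0.05 (0.57 ± 0.24). Of 14 genes for regulators of respiratory genes 13 were measured and 0 called. Their 1 region under that p was the promoter of Sp1 with 2.3, 6.43 and 5.03 CPM in KO and 2, 2.41 and 2.44 CPM in WT (0.97 ± 0.24, limma adjusted p = 0.241). Nrf1 gene bodies had 162 ± 19.3 CPM in KO and 169 ± 24.4 CPM in WT (-0.05 ± 0.06), and those of Gabpa 50 ± 3.31 CPM in KO and 48.9 ± 2.31 CPM in WT (0.02 ± 0.08).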

How the data were processed

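POLR2A ChIP-seq libraries of 3 KO and 3 WT NPC cultures were grouped by their titles and paired by the replicate number in them. Per the submitters' processing notes, reads were demultiplexed with bcl2fastq 2.20 and then handled with BWA, Trimmomatic, Picard, HOMER, MACS2, limma and edgeR on build GRCm38 (mm10). The authors counted reads with HOMER per promoter, gene body and TES region and deposited whole-number counts without normalization, after removing genes without KO signal. They also deposited log2 CPM from TMM and voom, which served as an alternative. Further deposited tables held the same counts and were not used. For the gene annotation of the regions, the release was not given in the sources used here. Gene extents of GENCODE vM21 fitted the counts better than RefSeq's where these differed over 3-fold, and gave lengths and windows for 12099 genes. No input or spike-in library was used here.

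All 36321 regions were scaled with TMM and fitted with limma-voom (R 4.3.3, edgeR 4.0.16, limma 3.58.1), with the pair as a block, two-sided p-values adjusted by Benjamini-Hochberg across the 36321 and calls made under 0.1. The pausing index added 0.5 to each count, was limited to genes averaging 10 or more counts in promoter and gene body, and was fitted with limma under the same block. Same-numbered libraries deviated together (correlation 0.61 to 0.89). The study's methods describe replicate pairs but do not say which libraries are partners, so taking equal numbers as pairs was an assumption. No 2 libraries of a group were copies (chi-square per degree of freedom 28.5 to 76.5). Total counts of 14528870 to 25199455 per library gave the members a median SE of 0.15 at promoters, 0.11 in bodies and 0.17 at TES regions. Alternatives were other scalings, edgeR's quasi-likelihood test, DESeq2 1.42.0, a filter at a mean of 10 counts, no block and left-out libraries.

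The members, lists and rules were chosen with earlier results of these data known. Genes named were any called member or one with a library 10 times the median of the others (neither occurred), and, per complex and region, the 2 members with the smallest p, the highest and lowest promoter of each complex, the 5 smallest p of the pausing index, and a fixed set of core genes. Other members, and neighbouring genes whose windows share reads, were named after their values were seen.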

Additional observations from a re-analysis of the deposited data

How the results depend on the processing

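The count of called members stayed at 0 in all 3 regions under 4 other scalings, edgeR's quasi-likelihood test, DESeq2, the deposited log2 CPM and a filter on low counts. It was 0 without the replicate block as well. That fit called 0 of all promoters, 0 gene bodies and 0 TES regions, so its count says nothing about the members. Without the block by replicate pair, the members at an unadjusted p under 0.05 numbered 0 promoters, 0 gene bodies and 0 TES regions, against 8, 7 and 2 with it. For the pausing index 0 members were called, among 0 of all 12096 genes. DESeq2 gave 3 promoters and 1 TES region at that p, with no adjusted p for 4722 of all promoters and 7702 of all TES regions, and edgeR's quasi-likelihood test 9 promoters, 5 gene bodies and 2 TES regions. Leaving out single libraries or pairs moved the called members between 0 and 3 promoters and between 0 and 5 pausing indices. Calls over all genes moved too, between 2 and 356 promoters and between 9 and 371 pausing indices. Members at an unadjusted p under 0.05 then numbered between 3 and 17 promoters, 5 and 9 gene bodies, and 1 and 4 TES regions. The share of all genes at that p is not given for these alternative fits, so such counts are not results about the members. The cause of the shifts between left-out fits was not tested, though each such fit has fewer libraries. With the block, leaving out a library also takes its partner out of the KO and WT difference. With at least 50 counts, 1 pausing index (Ndufa3) was called. Of 605 values of 35 named member regions or indices under the alternatives, 17 passed the threshold and 5 changed sign, all near 0. Over the left-out libraries and pairs the log2 fold change ran from -0.18 to 0.00 at the Sdha promoter, from -0.02 to 0.12 in the Sdhc gene body and from -0.20 to 0.00 in the Sdhd gene body. Depth limits the low promoters, since member promoters held as few as 6 reads in a library.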
